A study of Mus musculus with 48 samples.

Results

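The 10 genes described here encode the subunits of the hypoxia-inducible factors (HIFs) and the proteins that set HIF activity by the oxygen available: the alpha subunits *Hif1a*, *Epas1* and *Hif3a*, the beta subunits *Arnt* and *Arnt2*, the ubiquitin ligase subunit *Vhl*, the prolyl hydroxylases *Egln1*, *Egln2* and *Egln3*, and the asparaginyl hydroxylase *Hif1an*. They were taken by symbol from the batch-corrected tables of 19601 genes, all 10 were found there, and all 10 belong to the 14839 genes that edgeR's filterByExpr kept for testing. The mRNA was measured by bulk RNA-seq of the substantia nigra (SN), the midbrain region that holds the dopaminergic neurons lost in Parkinson's disease. The mice were male C57BL/6J, 121 days old when α-synuclein was injected into the right striatum. Tissue was collected 90 or 91 days later, except for replicate 11 of the monomer mice at 11% O2, which is given at 98 days. Injections held either preformed fibrils of mouse α-synuclein (PFF), which seed aggregates, or the monomer, which served as control, and mice breathed 21% or 11% O2. The groups analysed were 11 monomer and 12 PFF mice at 21% O2, and 9 monomer and 10 PFF mice at 11% O2, after the authors left out 6 of 48 mice. The paper's methods have the mice at 11% O2 for 12 weeks from soon after injection, whereas the text deposited with the data has 6 weeks at 21% O2 followed by 6 weeks at 11% O2, so the length of exposure is given here as uncertain.

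When oxygen is plentiful, prolyl hydroxylases modify the HIF alpha subunits, the modified protein is bound by the VHL ligase, and it is degraded. An asparaginyl hydroxylase, the product of *Hif1an* (also called FIH), blocks the binding of coactivators in addition. When oxygen falls, alpha subunits persist, pair with a beta subunit and induce genes of glycolysis and blood vessel growth. The switch acts on protein, which RNA-seq does not measure, and *Egln1* and *Egln3* are themselves known HIF targets in many cell types.

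Each mouse had 12902996 to 17120921 counts on genes, and the mice were processed in 3 batches by date. Monomer mice at 11% O2 were absent from batch 2 and monomer mice at 21% O2 from batch 3, so that 11% and 21% O2 can be compared in monomer mice within batch 1 only. The 8 dopaminergic neuron markers, among them *Th* and *Slc6a3*, were above 0 in some mice of every group, and their summed level ran from 581 to 4397 TPM over the 42 mice. With 11% against 21% O2 in monomer mice, 9 of 9 endothelial, 6 of 7 pericyte and 5 of 5 red cell markers were called higher, as were 2 of 6 oligodendrocyte markers. In PFF mice 2 of 9 endothelial and 3 of 7 pericyte markers were called higher, and no red cell or oligodendrocyte marker was. Of all genes tested, 7.23% were called in monomer and 0.58% in PFF mice, in either direction. In bulk tissue, fewer cells of a type and less RNA per cell cannot be told apart.

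None of the 10 genes was called in any comparison, where a call required a Benjamini–Hochberg adjusted p under 0.05 in edgeR's quasi-likelihood test and an absolute log2 fold change larger than 0.25. The share of all 14839 genes called was 7.23% for 11% against 21% O2 in monomer mice, 0.58% for the same contrast in PFF mice, 3.7% for PFF against monomer at 21% O2, 0% for PFF against monomer at 11% O2 and 2.14% for the interaction of injection and O2. DESeq2 called none of the 10 either. At an unadjusted p under 0.05 in edgeR, 2, 4, 3, 0 and 0 of the 10 passed in these comparisons, in that order. The share of all genes under that p was 27.7%, 10.7%, 22.4%, 3.92% and 15.4%. By the adjusted p alone, without the fold threshold, *Egln1* rose with 11% O2 in monomer and in PFF mice, and *Hif1an* fell with 11% O2 in monomer mice and with PFF at 21% O2. The share of all genes that passed the adjusted p alone was 13.2%, 0.815%, 7.59%, 0% and 2.32%, against 2, 1, 1, 0 and 0 of the 10 genes.

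**Figure D1:**
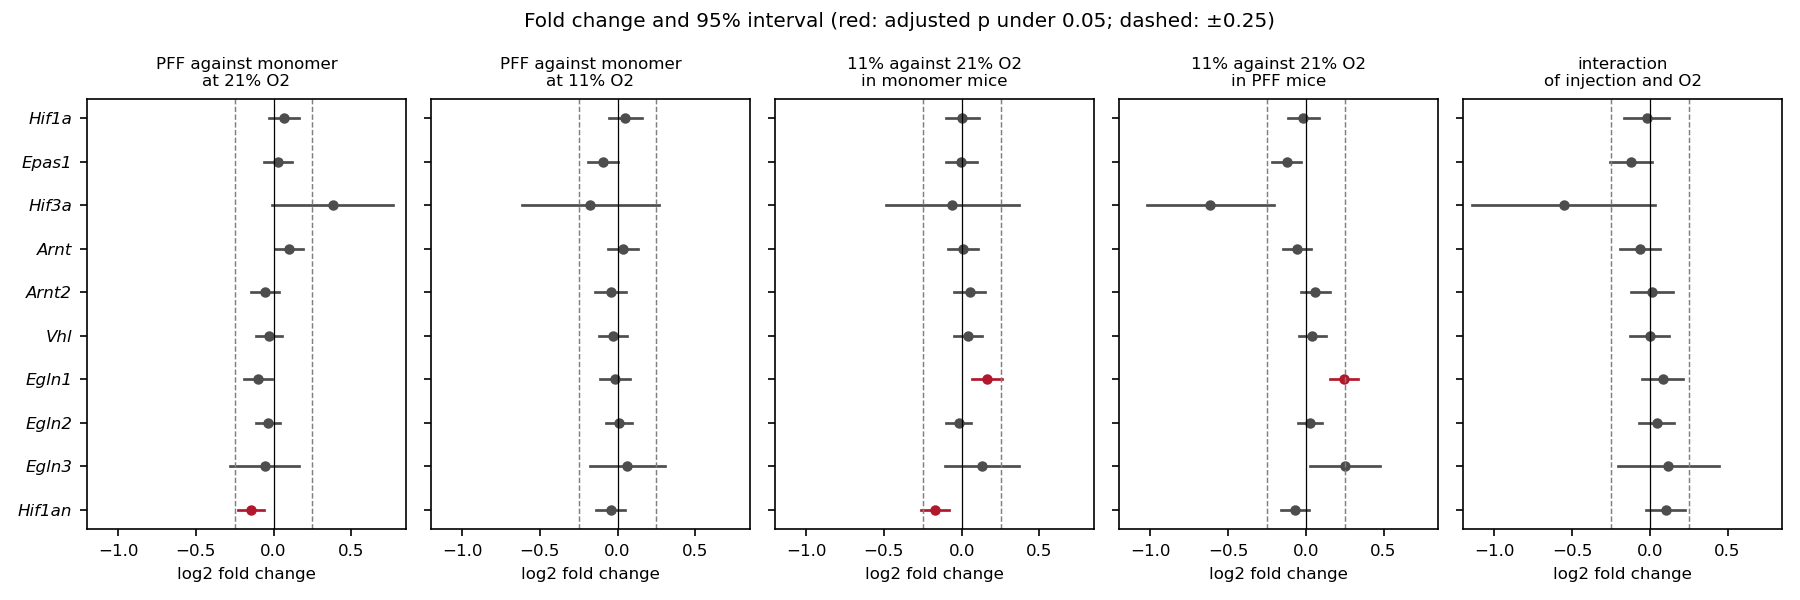
Log2 fold change (x axis) of the 10 genes (y axis) in the 5 comparisons, with 95% intervals from edgeR. Red marks an adjusted p under 0.05 and the dashed lines stand at -0.25 and 0.25. *Egln1* lies at 0.16 and 0.25 and *Hif1an* at -0.17 and -0.07 with 11% O2 in monomer and PFF mice, and the intervals of *Hif3a* are the widest shown.

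The order of the mean levels was the same in all 4 groups. TPM, which divides counts by gene length and by depth, allows genes to be set side by side. *Arnt2* was the most abundant, with a mean of 161.6 TPM over the 42 mice, followed by *Epas1* at 120.4, *Egln2* at 105, *Egln1* at 84.9, *Hif1a* at 71.0, *Vhl* at 60.3, *Hif1an* at 33.5, *Arnt* at 27.7, *Egln3* at 23.0 and *Hif3a* at 7.57 TPM. Neighbours in that order often shared part of their range over mice: *Hif1a* and *Vhl*, *Arnt* and *Egln3*, and *Epas1* and *Egln2* overlapped in every group, whereas *Vhl* and *Hif1an* did not in any group. *Egln1* and *Hif1a* overlapped in both groups at 21% O2 and in neither group at 11% O2.

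**Figure D2:**
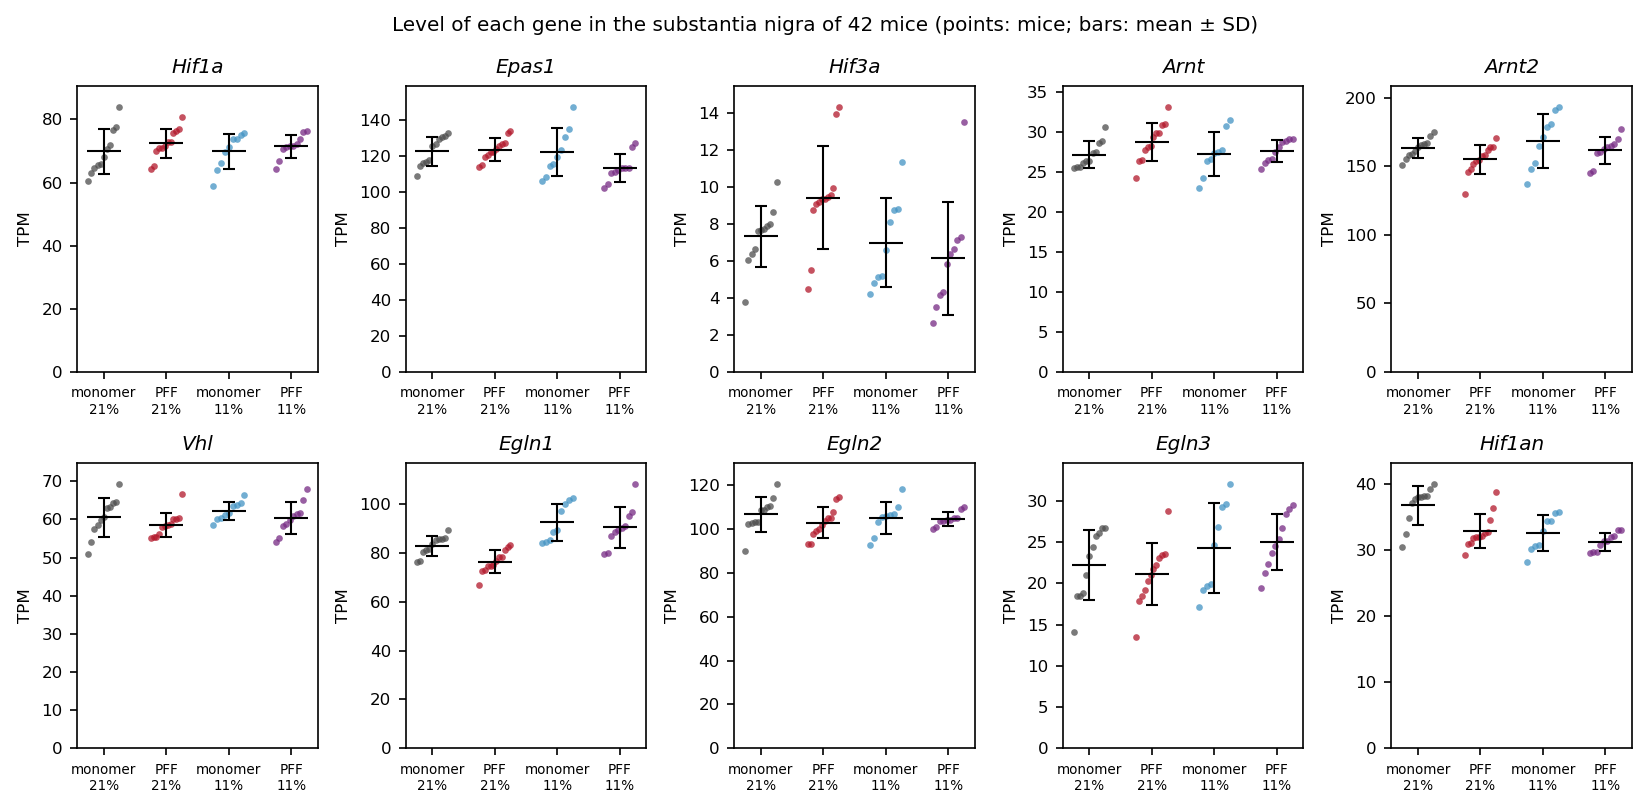
Level of each gene in TPM (y axis) in the 4 groups (x axis). Points are mice and black bars the mean ± SD (n = 11 monomer and 12 PFF mice at 21% O2, and 9 monomer and 10 PFF mice at 11% O2). The 10 PFF mice at 11% O2 are all above the median of the PFF mice at 21% O2 for *Egln1*, while the groups share most of their range for *Hif1a*, *Vhl* and *Egln2*.

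*Hif1a* (ENSMUSG00000021109.13, chr12:73901375-73947530 of GRCm38) encodes the alpha subunit found in most cell types, whose protein is the classical sensor output. In monomer mice it ran from 60.5 through a median of 68.0 to 83.9 TPM at 21% O2, and from 59.0 through 71.3 to 75.8 TPM at 11% O2. In PFF mice it ran from 64.3 through 72.2 to 80.8 TPM at 21% O2 and from 64.2 through 71.6 to 76.3 TPM at 11% O2. All 4 ranges overlapped over most of their length. The log2 fold change with 11% O2 was 0.0041 (95% interval -0.10 to 0.11) in monomer and -0.02 (-0.12 to 0.08) in PFF mice, and with PFF it was 0.07 (-0.03 to 0.16) at 21% O2 and 0.05 (-0.06 to 0.15) at 11% O2. All 4 intervals lay within -0.25 and 0.25. Its exons share 330 bases with the antisense gene *Gm15283*, which averaged 14.2 counts against 1572 for *Hif1a*, and counting without strand cannot tell such reads apart.

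*Epas1* (ENSMUSG00000024140.10, chr17:86753700-86833410) encodes HIF-2α, which is known for its high level in endothelial cells and for inducing erythropoietin. It was the most abundant alpha subunit, with 59.3% to 61.4% of the summed alpha subunit TPM as the mean of each group. In PFF mice its level ran from 114 through a median of 123.0 to 134 TPM at 21% O2, and from 102 through 113 to 127 TPM at 11% O2. Only 2 of the 10 PFF mice at 11% O2 were above the median of the PFF mice at 21% O2, but the ranges overlapped. The log2 fold change was -0.12 (SE 0.0458, unadjusted p = 0.0108) and did not pass (adjusted p = 0.285). In monomer mice *Epas1* was at 122 ± 8.06 TPM (SD, n = 11) and 122 ± 13.3 TPM (SD, n = 9) at 21% and 11% O2, a log2 fold change of -0.0015 (95% interval -0.10 to 0.10). Endothelial markers were called higher in 9 of 9 cases in those mice, with a summed level of 226 to 306 TPM at 21% and 305 to 549 TPM at 11% O2. Within groups, *Epas1* and the summed endothelial markers correlated at 0.31 over the 42 mice. That value did not stand out. *Epas1* stood at 0.33 with pericyte and 0.31 with astrocyte markers, and at -0.41 with neuron and -0.37 with dopaminergic neuron markers. The interaction of injection and O2 was -0.12 for *Epas1* (SE 0.0663, edgeR adjusted p = 0.392).

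*Hif3a* (ENSMUSG00000004328.15, chr7:17031507-17062427) encodes an alpha subunit with splice forms that can inhibit HIF activity. It was the least abundant of the 10 genes and, on corrected counts, the most variable within groups. In monomer mice it ran from 3.75 through a median of 7.67 to 10.3 TPM at 21% O2, and from 4.23 through 6.61 to 11.4 TPM at 11% O2. In PFF mice it ran from 4.47 through 9.35 to 14.3 TPM at 21% O2, and from 2.63 through 6.10 to 13.5 TPM at 11% O2. The group medians were thus highest with PFF at 21% O2 and lowest with PFF at 11% O2, with ranges that overlapped in each comparison. The log2 fold change with 11% O2 in PFF mice was -0.62 (SE 0.202, unadjusted p = 0.0040, adjusted p = 0.185), and 9 of the 10 mice at 11% O2 were below the median of those at 21% O2. The exception was replicate 6, at 13.5 TPM against 7.28 TPM for the next, and without that mouse the change was -0.82 and passed (edgeR adjusted p = 0.0197). The 3 batches differed: the change was -0.53 in batch 1, 0.01 in batch 2 and -1.22 in batch 3. Batch 2 held 3 PFF mice at 11% O2, of which replicate 6 was 1. The part of that mouse in the batch 2 value was not tested. With PFF at 21% O2 the change was 0.38 (SE 0.194, adjusted p = 0.240), with 10 of 12 PFF mice above the median of the monomer mice. It was 0.29 (SE 0.236) in batch 1 and 0.14 (SE 0.206) in batch 2. On counts before correction it was 0.35 with batch as a covariate and 0.21 with no batch term. The SD of *Hif3a* in PFF mice at 21% O2 was 2.78 TPM after correction and 1.32 TPM before it. Monomer mice had 1.65 and 1.36 TPM at 21% O2, and 2.40 TPM in both at 11% O2. PFF mice at 11% O2 had 3.04 and 2.79 TPM. The interaction was -0.56 (SE 0.292, edgeR adjusted p = 0.364). Its SD within groups was 0.503 on the log2 CPM scale, larger than that of 95.5% of genes and above the median of 0.142, so intervals as wide as -0.49 to 0.37, for 11% O2 in monomer mice, leave changes past 0.25 undetected.

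*Arnt* (ENSMUSG00000015522.18, chr3:95434388-95497240) and *Arnt2* (ENSMUSG00000015709.9, chr7:84246278-84410176) encode the beta subunits with which alpha subunits pair, and *Arnt2* is the form known for its high level in neurons. *Arnt2* made up 84.3% to 85.9% of the summed beta subunit TPM as the mean of each group. *Arnt* in monomer and PFF mice at 21% O2 was at 27.2 ± 1.66 (SD, n = 11) and 28.8 ± 2.42 TPM (SD, n = 12), and at 11% O2 at 27.2 ± 2.73 (SD, n = 9) and 27.6 ± 1.39 TPM (SD, n = 10). *Arnt2* in the same order was at 163.1 ± 7.10, 155 ± 10.6, 168 ± 19.5 and 161.6 ± 9.80 TPM. None of these differences passed. The largest for *Arnt* was 0.10 with PFF at 21% O2 (SE 0.0433, unadjusted p = 0.0267, adjusted p = 0.159), where 10 of 12 PFF mice were above the median of the monomer mice. For *Arnt2* it was 0.06 with 11% O2 in PFF mice (95% interval -0.03 to 0.16). The intervals of both genes lay within -0.25 and 0.25 in every comparison.

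*Vhl* (ENSMUSG00000033933.13, chr6:113623959-113631633) encodes the subunit that recognizes hydroxylated alpha subunits for ubiquitination. In monomer and PFF mice it was at 60.5 ± 5.20 (SD, n = 11) and 58.6 ± 3.19 TPM (SD, n = 12) at 21% O2, and at 62.2 ± 2.41 (SD, n = 9) and 60.3 ± 4.17 TPM (SD, n = 10) at 11% O2. The change with 11% O2 was 0.04 in both, with intervals of -0.05 to 0.13 and -0.04 to 0.13, and the interaction was -0.0004 (-0.13 to 0.12). Of the 8 partners of VHL in its ligase, from the adaptors to the conjugating enzymes, none passed the adjusted p in any of the 5 comparisons. Over all genes, 13.2% passed with 11% O2 in monomer mice, the largest share of the 5. The most abundant of them were *Nedd8*, the modifier that activates cullins, and *Elob*, the elongin B adaptor. *Nedd8* changed by -0.02 (SE 0.0462) and *Elob* by 0.03 (SE 0.0501) with 11% O2 in monomer mice. The median of the 8 was -0.02 in monomer and 0.0089 in PFF mice, beside -0.0060 and -0.0063 over all genes.

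*Egln1* (ENSMUSG00000031987.6, chr8:124908587-124949324) encodes PHD2, the prolyl hydroxylase that carries most of the oxygen-dependent control of HIF-1α in normal cells, and it had the smallest adjusted p of the 10 genes. In PFF mice it ran from 66.7 through a median of 75.8 to 83.3 TPM at 21% O2, and from 79.3 through 89.6 to 108 TPM at 11% O2. In monomer mice it ran from 76.0 through 83.5 to 89.5 TPM at 21% O2, and from 84.2 through 89.3 to 102 TPM at 11% O2. All 10 PFF and all 9 monomer mice at 11% O2 were above the median of their own 21% O2 group, although in both cases the ranges overlapped. The log2 fold change was 0.247 in PFF mice (SE 0.0451, edgeR adjusted p = 0.00134), a rise of 18.7% that ended just under the threshold of 0.25. Each mouse left out in turn gave 0.22 to 0.27, and without replicate 1, 7, 8, 9 or 11 of the PFF mice at 21% O2, or 1, 4, 8 or 11 of those at 11% O2, *Egln1* was called. In monomer mice it was 0.16 (SE 0.0473, adjusted p = 0.0172), a rise of 11.9%. The interaction, which tests whether these 2 rises differ, was 0.08 (95% interval -0.05 to 0.22, adjusted p = 0.581).

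The rise of *Egln1* had the same sign in every batch that held both groups. In PFF mice it was 0.28 (SE 0.0589) in batch 1, 0.21 (SE 0.0614) in batch 2 and 0.21 (SE 0.0929) in batch 3, and in monomer mice it was 0.17 (SE 0.0545) in batch 1. None of these values passed the adjusted p within a single batch of 13 to 15 mice. With PFF at 21% O2 *Egln1* was 0.10 lower on the log2 scale, with all 12 PFF mice below the median of the monomer mice, but this did not pass (log2 fold change -0.10, SE 0.0441, unadjusted p = 0.0268, adjusted p = 0.159). At 11% O2 PFF and monomer mice differed by -0.02 (95% interval -0.11 to 0.08). Oligodendrocyte markers rose in part with 11% O2 in monomer mice, where 3 of 6 passed the adjusted p. Their summed level was 7899 to 10901 TPM at 21% and 8266 to 12430 TPM at 11% O2, and within groups it correlated with *Egln1* at 0.55 over the 42 mice (0.58 before correction). In PFF mice no oligodendrocyte marker passed, with summed levels of 7929 to 10425 and 8382 to 10587 TPM, and the change of *Egln1* there was 0.247. None of the 6 markers was at 0 in all mice of any group. Endothelial markers, which were higher with 11% O2, correlated with *Egln1* at -0.26 within groups, and the part of these cell types in its rise was not tested.

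Sequence before the start sites was read from RefSeq on GRCm38.p6 for 9 of the 10 genes, over 250 bases before and 50 bases after the start, to show where the core of the HIF response element falls in the genes whose levels are compared here. The core was searched as ACGTG and as GCGTG on both strands. ACGTG was found for 4 of the 9 genes (*Hif1a*, *Egln1*, *Egln2* and *Egln3*) and either form for 6, beside 19.6% and 43.8% of all 32851 windows, and neither form was found for *Arnt2*, *Vhl* and *Hif1an*. *Epas1* was the gene without such sequence. In *Egln2*, whose level changed little here, ACGTG began 48, 4 and 3 bases and GCGTG 151, 137 and 34 bases before a start. In *Egln1* an ACGTG began 68 bases before the start, in *Egln3* 229 bases before it, and in *Hif1a* a pair overlapped on opposite strands from 135 bases before it, as a CACGTG that is also the E-box of other bHLH factors. The 30 bases around them, on the strand of the gene with the core in capitals, are at chr8:124949305-124949334 for *Egln1*, chr12:54204086-54204115 for *Egln3* and chr12:73907720-73907749 for *Hif1a*. A match is a run of letters and not a site shown to be bound.
Egln1: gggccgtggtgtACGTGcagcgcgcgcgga
Egln3: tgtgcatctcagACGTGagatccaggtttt
Hif1a: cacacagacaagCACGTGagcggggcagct

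*Egln2* (ENSMUSG00000058709.11, chr7:27158658-27166802) encodes PHD1, the most abundant prolyl hydroxylase mRNA here, with 47.4% to 51.4% of the summed TPM of the 3 as the mean of each group. Its level was 107 ± 7.90 (SD, n = 11) in monomer and 103 ± 6.87 TPM (SD, n = 12) in PFF mice at 21% O2, and 105 ± 7.45 (SD, n = 9) and 105 ± 3.098 TPM (SD, n = 10) at 11% O2. Its log2 fold changes ran from -0.03 to 0.03 over the 4 comparisons of groups, and its SD within groups of 0.0866 was smaller than that of all but 3.15% of genes. All of its intervals lay within -0.25 and 0.25.

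*Egln3* (ENSMUSG00000035105.5, chr12:54178981-54203860) encodes PHD3, a hydroxylase known as a strongly hypoxia-induced gene in cultured cells. In PFF mice it ran from 13.5 through a median of 21.4 to 28.7 TPM at 21% O2, and from 19.5 through 24.9 to 29.5 TPM at 11% O2. In monomer mice it ran from 14.1 through 23.3 to 26.7 TPM, and from 17.14 through 24.6 to 32.1 TPM. The ranges overlapped in both. With 11% O2 its log2 fold change was 0.25 in PFF mice (SE 0.112, unadjusted p = 0.0301) and 0.13 in monomer mice (SE 0.117), and neither passed (edgeR adjusted p = 0.412 and 0.505). Its SD within groups was 0.277, larger than that of 80.8% of genes, and its 95% interval in PFF mice was 0.03 to 0.47. Within batches the change was 0.10, 0.27 and 0.29 in PFF mice of batches 1, 2 and 3, and 0.67 (SE 0.213, adjusted p = 0.103) in monomer mice of batch 1. On counts before correction with batch as a covariate, it was 0.28 in monomer and 0.24 in PFF mice (edgeR adjusted p = 0.244 and 0.4). With all 48 mice in that fit it was 0.33 in both (edgeR adjusted p = 0.147 and 0.169). The monomer value thus depends on the correction.

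*Hif1an* (ENSMUSG00000036450.4, chr19:44562850-44576274) encodes the asparaginyl hydroxylase, and its level was highest in the monomer mice at 21% O2. In these it ran from 30.5 through a median of 38.0 to 40.1 TPM, against 29.3 through 32.1 to 38.8 TPM in PFF mice at 21% O2. At 11% O2 it ran from 28.2 through 32.9 to 35.8 TPM in monomer and from 29.5 through 31.3 to 33.0 TPM in PFF mice. All 9 monomer mice at 11% O2 and 11 of 12 PFF mice at 21% O2 were below the median of the monomer mice at 21% O2, with overlapping ranges. The log2 fold change was -0.17 with 11% O2 in monomer mice (SE 0.0455, edgeR adjusted p = 0.00899), a fall to 0.888 of the level. With PFF at 21% O2 it was -0.15 (SE 0.0422, adjusted p = 0.0261). Both comparisons use the same 11 monomer mice at 21% O2, so their values are not independent of each other. With 11% O2 in PFF mice the change was -0.07 (SE 0.0436, adjusted p = 0.592), with PFF at 11% O2 it was -0.04 (95% interval -0.14 to 0.05), and the interaction was 0.10 (SE 0.0629, adjusted p = 0.466).

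The fall of *Hif1an* with PFF at 21% O2 was unequal between batches. It was -0.05 (SE 0.0520) in batch 1 and -0.27 (SE 0.0435, adjusted p = 0.002) in batch 2, where it was called, beside -0.10 (SE 0.0519) for 11% O2 in monomer mice of batch 1. Without replicate 7 or 9 of the monomer mice or replicate 4 of the PFF mice, each left out in turn, the fall at 21% O2 no longer passed (edgeR adjusted p = 0.0591, 0.0543 and 0.0509). Fitted with only the 2 groups compared, the adjusted p was 0.0505 for PFF at 21% O2 and 0.0513 for 11% O2 in monomer mice. Within groups *Hif1an* correlated at -0.48 with the summed neuron markers, of which none of 6 passed in any comparison. Their level was 2633 to 3567 TPM in monomer and 2584 to 3313 TPM in PFF mice at 21% O2, and 2644 to 3425 TPM in monomer mice at 11% O2.

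**Figure D3:**
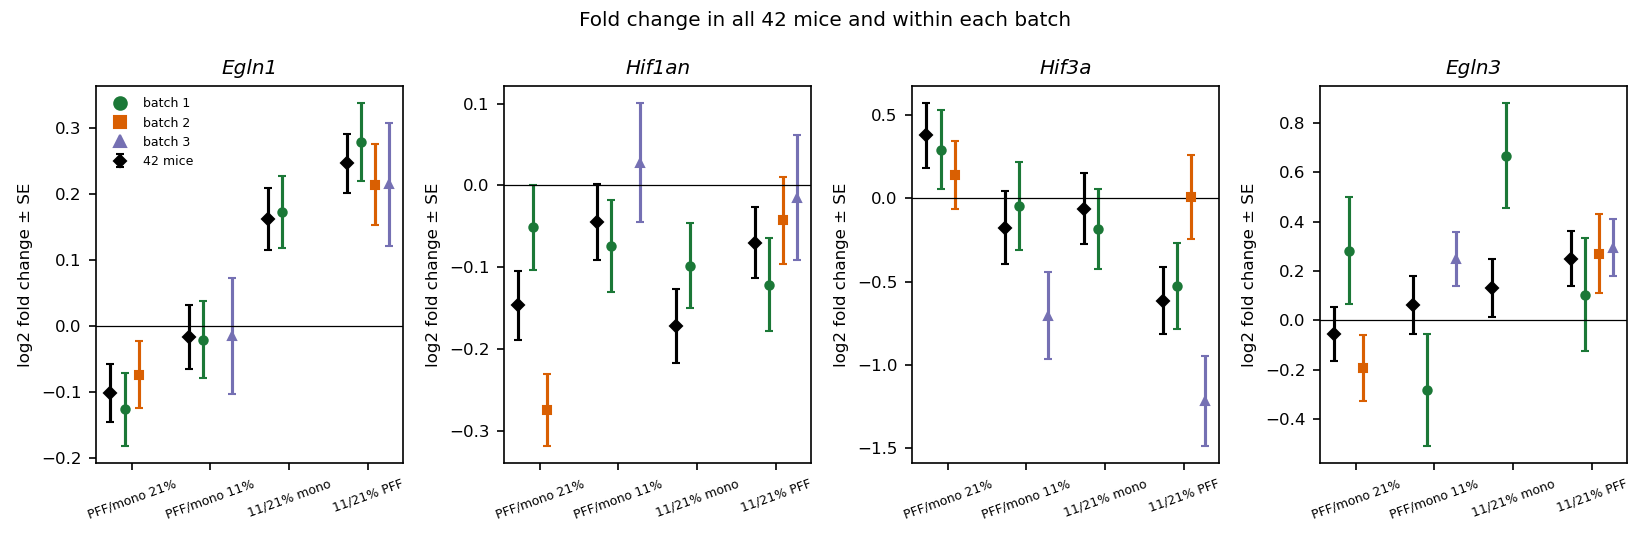
Log2 fold change ± SE (y axis) of *Egln1*, *Hif1an*, *Hif3a* and *Egln3* in the 4 comparisons of groups (x axis). Black diamonds show all 42 mice, and coloured symbols each batch alone, from counts before correction. *Egln1* lies above 0 with 11% O2 in every batch, whereas *Hif3a* in PFF mice lies at 0.01 in batch 2 and at -1.22 in batch 3. Replicate 6, the mouse with the highest *Hif3a* of its group, is 1 of the 3 PFF mice at 11% O2 in batch 2.

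The 95% intervals give how much change these numbers of mice could have missed. With 11% O2 in monomer mice 6 of the 10 genes had intervals within -0.25 and 0.25, the other 4 being *Hif3a*, *Egln1*, *Egln3* and *Hif1an*. In PFF mice it was 7 of 10, all but *Hif3a*, *Egln1* and *Egln3*. For PFF against monomer it was 8 of 10 at both O2 levels, all but *Hif3a* and *Egln3*. The median of the absolute log2 fold change over the 10 was 0.05 with 11% O2 in monomer mice and 0.07 in PFF mice, beside 0.09 and 0.06 over all genes tested.

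HIF target genes were set beside the sensor. The list is a selection and does not hold every known target. Of 14 listed, 13 passed the filter, and *Car9* did not. With 11% O2 in monomer mice, 8 of these 13 were called higher and 1 lower, and in PFF mice 8 were called higher and none lower. Over all genes, 7.23% and 0.58% were called in either direction. The median log2 fold change of the list was 0.48 in monomer and 0.54 in PFF mice. The medians over all genes were -0.0060 and -0.0063. *Vegfa*, the endothelial growth factor, rose by 0.89 and 0.94 on the log2 scale in monomer and PFF mice (SE 0.0504 and 0.0482). *Kdr*, its receptor, rose by 1.15 and 0.97 (SE 0.0929 and 0.0893), and *Adm*, the vasodilator adrenomedullin, by 1.15 and 1.11 (SE 0.163 and 0.161). *Ldha*, which makes lactate, rose by 0.48 and 0.54 (SE 0.0628 and 0.0599), *Pdk1*, which holds back pyruvate oxidation, by 0.33 and 0.29, and *Ankrd37* by 0.66 and 0.75. The gene called lower in monomer mice was *Ddit4*, an inhibitor of mTORC1 signalling, at -0.44 (SE 0.0924, edgeR adjusted p = 0.0011), and it was named after its values were seen. The study had named several of these targets from these same samples, so the list is not independent evidence of its direction. The interaction passed for none of the 13. *Kdr* is also an endothelial gene, and endothelial markers rose alongside. Their part in the rise of the targets was not tested.

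**Figure D4:**
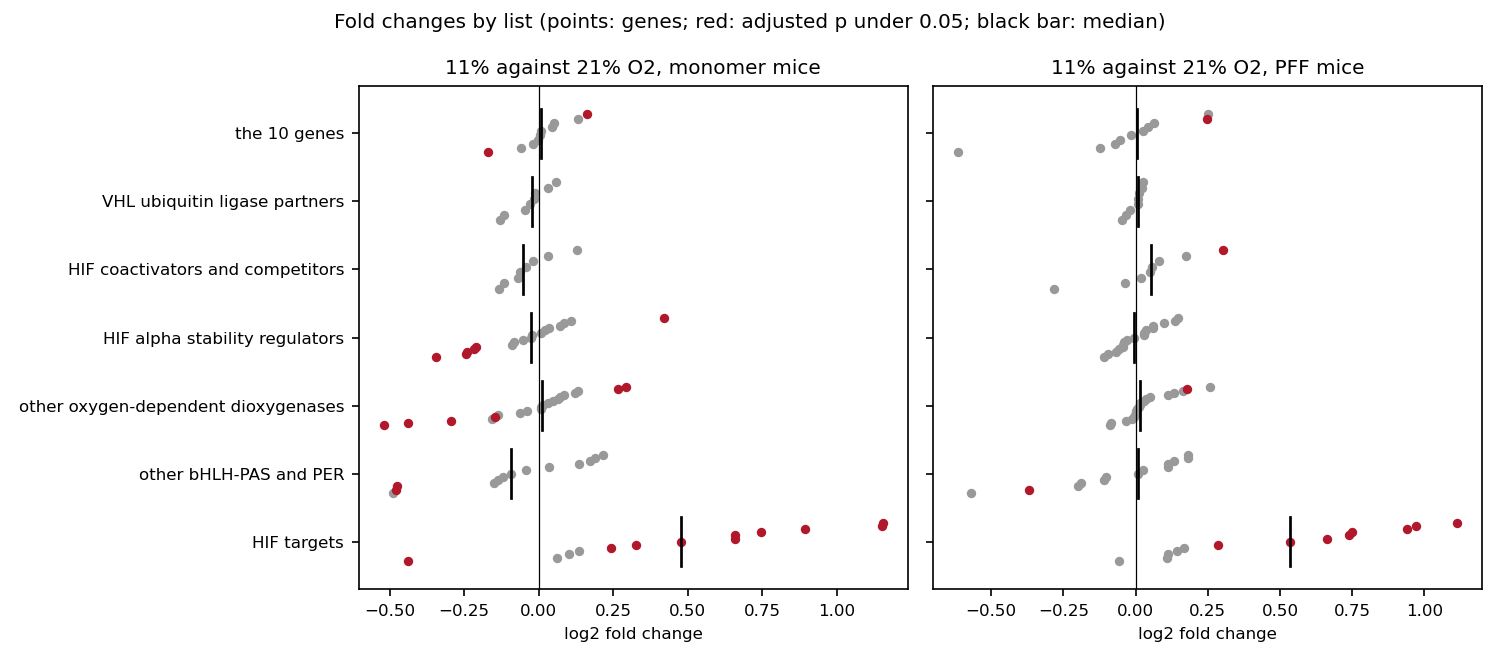
Log2 fold change (x axis) for 11% against 21% O2 in monomer (left) and PFF mice (right) of each gene in 7 lists (y axis). Red points passed an adjusted p under 0.05 in edgeR and the black bar is the median of the list. The medians of the 10 HIF and sensor genes are 0.0064 and 0.0045 in monomer and PFF mice, although *Hif3a* lies at -0.62 in PFF mice, and the medians of the HIF targets are 0.48 and 0.54.

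Coactivators of HIF and their competitors form a further list. Of the 8, none passed with 11% O2 in monomer mice, and *Cited2*, itself a hypoxia-induced protein that competes with HIF for the coactivator p300, was called in PFF mice. Over all genes, 13.2% passed the adjusted p in monomer mice and 0.58% were called in PFF mice. *Cited2* rose by 0.30 with 11% O2 in PFF mice (SE 0.0714, edgeR adjusted p = 0.0237) and changed by -0.13 in monomer mice (SE 0.0748, adjusted p = 0.243). It fell by 0.25 with PFF at 21% O2 (SE 0.0697, adjusted p = 0.0207). The interaction was called for it, at 0.44 (SE 0.103, adjusted p = 0.0141). *Ep300*, which encodes p300, fell by 0.18 with PFF at 21% O2 by the adjusted p alone (SE 0.0436, adjusted p = 0.00648). Of the 8, 1 was called with PFF at 21% O2 and 1 for the interaction, beside 3.7% and 2.14% of all genes. By the adjusted p alone, 2 of the 8 passed with PFF at 21% O2, beside 7.59% of all genes.

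Among 17 regulators of alpha subunit stability, 2 were called with 11% O2 in monomer mice, 0 in PFF mice, 1 with PFF at 21% O2 and 1 for the interaction. The shares of all genes called were 7.23%, 0.58%, 3.7% and 2.14%, in that order. *Siah2*, a ubiquitin ligase that degrades prolyl hydroxylases, fell by 0.34 with 11% O2 in monomer mice (SE 0.0826, adjusted p = 0.00387) and by 0.32 with PFF at 21% O2 (SE 0.0764, edgeR adjusted p = 0.00749). Its interaction was 0.49 (SE 0.114, adjusted p = 0.0113). Its paralogue *Siah1b* rose by 0.42 with 11% O2 in monomer mice (SE 0.0741, adjusted p = 0.000121), and reads from near-identical *Siah1a* may be assigned to it, so its value is uncertain. Without the fold threshold, 5 of the 17 fell with 11% O2 in monomer mice, of which *Hsp90aa1*, *Hsp90ab1*, *Hspa8* and *Ptges3* encode chaperones. Over all genes, 921 of 14839 fell by that rule.

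A further list holds 20 other dioxygenases, enzymes that likewise consume oxygen. Of these, 5 were called with 11% O2 in monomer mice and 4 with PFF at 21% O2, and none with 11% O2 in PFF mice. The shares of all genes called were 7.23%, 3.7% and 0.58%, in that order. *P4ha1* and *P4ha2*, collagen prolyl hydroxylases, fell by 0.44 and 0.52 with 11% O2 in monomer mice (edgeR adjusted p = 0.00112 and 9.95e-06) and by 0.69 and 0.44 with PFF at 21% O2 (adjusted p = 6.61e-07 and 0.000101). *P4ha3* rose by 0.27 with 11% O2 in monomer mice (SE 0.0820, adjusted p = 0.0249). *Jmjd6*, a lysyl hydroxylase, fell by 0.29 and 0.27, and *Tet2*, which oxidizes methylcytosine, rose by 0.29 and 0.33 in the same comparisons, which share the monomer mice at 21% O2. In PFF mice *P4ha1* changed by 0.26 with 11% O2 (adjusted p = 0.209) and *P4ha2* by -0.0034 (adjusted p = 0.991). The interaction was called for 4 of the 20, at 0.70 for *P4ha1*, 0.52 for *P4ha2*, 0.29 for *Jmjd6* and -0.38 for *Tet2* (adjusted p = 0.00187, 0.00492, 0.0344 and 0.0037). Over all genes it was called for 2.14%.

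The HIF subunits are bHLH-PAS factors, and a list of 14 other genes with PAS domains holds 11 further factors of that family and the 3 *Per* genes of the circadian clock, whose proteins lack the bHLH domain. Of the 11, 10 were tested and *Sim2* was not, and 1 was called in any comparison, *Arntl* with PFF at 21% O2. In that comparison 3.7% of all genes were called. The other calls were of *Per* genes. With 11% O2, *Per1* and *Per2* fell by 0.48 and 0.47 in monomer mice (edgeR adjusted p = 0.00083 and 9.85e-05), and *Per3* fell by 0.37 in PFF mice (adjusted p = 0.00304). With PFF at 21% O2 *Per1* fell by 0.33, *Arntl*, a partner of CLOCK, fell by 0.25, and *Per3* rose by 0.26 (adjusted p = 0.0209, 0.0126 and 0.0169). The interaction was called for none of the 10 factors or the 3 *Per* genes.

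Mice also differed within groups. After group means were subtracted, the 45 pairs had Pearson r of log2 CPM over 42 mice from -0.67 to 0.49 with a median of 0.06, and 29 were above 0. These are descriptions: all values come from the same libraries, so that depth, tissue makeup and RNA quality are shared. The lowest was that of the beta subunits *Arnt* and *Arnt2*, at -0.67, and it was -0.66 from counts before correction with group and batch means subtracted. *Hif1a* and *Egln2* followed at -0.58 (-0.54 before correction), and *Vhl* and *Egln2* stood at -0.49 but at -0.18 before correction. The highest on corrected counts were *Epas1* and *Egln3* at 0.49 (0.44 before correction), *Vhl* and *Egln1* at 0.48 (0.37), and *Arnt2* and *Egln2* at 0.42 (0.49). That order depends on the correction: before it, *Arnt2* and *Egln1* were highest at 0.64, against 0.21 on corrected counts, and *Epas1* and *Egln1* followed at 0.53, against 0.39. *Egln1* and *Hif1an*, the genes that passed a test, correlated at 0.12 (0.30 before correction).

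**Figure D5:**
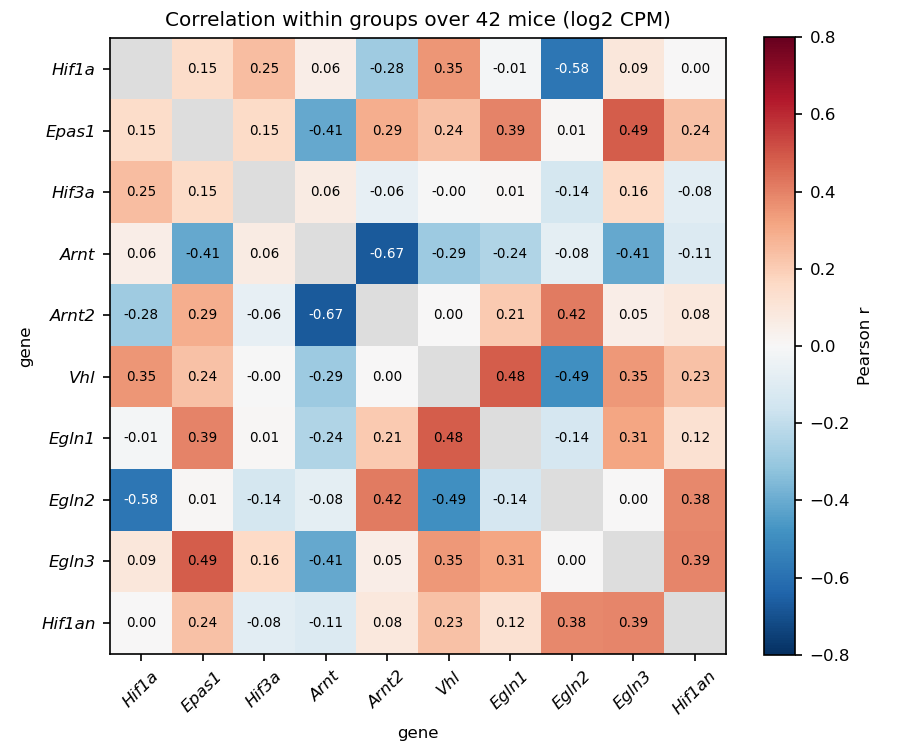
Pearson r (colour and number) between the genes on the x axis and those on the y axis, of log2 CPM from corrected counts over 42 mice after subtraction of group means. Red is positive and blue negative. *Arnt* and *Arnt2* stand at -0.67 and *Epas1* and *Egln3* at 0.49.

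The 3 genes most like each member by the same r were sought among 14838 others. For *Egln3* they included *Inpp5j* and *Cerk*, both at 0.85. *Hif1a* was nearest to *Capza2* (0.81), *Arhgap5* (0.79) and *Fut9* (0.79), and *Arnt* to *Ankrd10* (0.80), *Ddx50* (0.78) and *Gnl2* (0.78). *Hif3a* was nearest to *Plin4* (0.79), which coats lipid droplets, *Adipor2* (0.74) and *Klf9* (0.67). *Egln1* was nearest to *Map4* (0.78), *Scd2* (0.73) and *Desi1* (0.73), and *Epas1* to the creatine transporter *Slc6a8* (0.75), *Abhd2* (0.73) and *Lpin1* (0.71). *Arnt2* was nearest to *Ptprm* (0.75), *Vangl2* (0.75) and *Smarcc2* (0.74), *Vhl* to *Rfc1* (0.74), *Zfp706* (0.73) and *Galnt1* (0.72), *Egln2* to *Snrpb* (0.73), *Ccm2* (0.72) and *Zfp775* (0.72), and *Hif1an* to *Galc* (0.69), *Slu7* (0.68) and *Tspan14* (0.68). From counts before correction, with group and batch means subtracted, the r of these pairs ran from 0.54 for *Hif1an* and *Slu7* to 0.88 for *Egln3* and *Cerk*.

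Set beside summed markers in the same way, *Egln3* correlated at 0.50 with astrocyte, 0.52 with microglia and -0.48 with neuron markers (0.64, 0.69 and -0.45 before correction). *Vhl* stood at 0.57 with microglia and 0.54 with oligodendrocyte markers, *Egln2* at 0.59 and *Arnt2* at 0.45 with oligodendrocyte precursor markers, *Hif1an* at -0.48 with neuron markers (-0.35 before correction), and *Hif3a* at 0.43 with red cell markers. For *Arnt*, the value farthest from 0 was -0.34 with microglia markers.

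In the 6 mice that the authors left out, levels before correction ran from 57.5 to 69.1 TPM for *Hif1a* and from 68.5 to 101.0 TPM for *Egln1* in the 5 with full depth. *Egln1* was at 68.5 TPM in the monomer mouse at 21% O2, 87.7, 101.0 and 95.3 TPM in the 3 monomer mice at 11% O2, and 83.9 TPM in the PFF mouse at 11% O2. The other PFF mouse at 11% O2 had 3134594 counts on genes and *Egln1* at 65.9 TPM. *Hif3a* was at 12.1 TPM in the monomer mouse at 21% O2 and between 3.22 and 5.43 TPM in the monomer mice at 11% O2. That mouse at 21% O2 was in batch 2 and the 3 at 11% O2 were in batch 3. O2 and batch thus cannot be told apart in these monomer values. With all 6 left-out mice in a fit on counts before correction with batch as a covariate, *Egln1* rose by 0.19 in monomer and 0.24 in PFF mice with 11% O2 (edgeR adjusted p = 0.011 and 0.000422).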

How the data were processed

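Per the paper's methods and the labels, polyadenylated RNA of the SN was sequenced in pairs of 150 bases. The authors removed ribosomal DNA reads, aligned with STAR 2.7.5a to mm10, removed duplicates with Picard 2.21.9 and counted reads per gene of GENCODE vM24 with featureCounts 2.0.1, without strand and with the primary alignment of multimapping reads. The deposited counts are raw whole numbers for 48 mice, and batch-corrected counts (ComBat-seq) for 42. The deposited TPM were computed by the authors from each count table.

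Here the corrected counts were tested with edgeR 4.0.16 (R 4.3.3): TMM, filterByExpr by group and the quasi-likelihood test with 4 groups in 1 fit. Intervals are at 95%. The tests were repeated with every gene kept whatever its count, with DESeq2 1.42.0 or edgeR scaled by DESeq2's factors, and then with uncorrected counts (with or without a batch covariate, and within each batch), a replicate block, the compared groups by themselves, limma 3.58.1 on log2 TPM at several pseudocounts and filters, and each mouse left out in turn. Scripts were tested on simulated data. Positions are those of the same identifiers in GENCODE vM21 on GRCm38, and start site sequences are from RefSeq. Replicates are separate mice.

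The 10 genes, the 6 other pathway lists and the marker lists were chosen with earlier results of these data known. The rule for named genes was: all 10 members; from each list the called genes where at most 5 were called, otherwise the 5 with the smallest p, and where none was called the 2 with the highest mean TPM; and for each member the 3 genes with the highest within-group r. Other genes named (*Th*, *Slc6a3*, *Ep300*, *Ddit4* and the chaperones) were chosen after their values were seen. One gene that this rule names is not reported here.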

Additional observations from a re-analysis of the deposited data

Results flagged for a closer look

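In the PFF mice at 11% O2, *Hif3a* was at 13.503 TPM in 1 mouse, replicate 6 of batch 2, and at 7.28 TPM in the next highest of the 10. The gap is 0.572 of the range of the group, above Dixon's critical value of 0.466 for 10 samples. Of 20 groups of values examined in this way, the 10 genes in the 2 groups at 11% O2, this was the 1 marked, and chance marks about 1 in 20. Before batch correction the mouse was at 12.5 TPM for *Hif3a*, so the high value was there before that step.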

How the results depend on the processing

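The count of 0 of the 10 genes called became 1 for PFF against monomer at 21% O2 in batch 2 alone, and became 1 in that comparison, 2 for 11% O2 in monomer mice and 1 for 11% O2 in PFF mice without the fold threshold. With each mouse left out in turn it ranged from 0 to 1 for 11% O2 in PFF mice and stayed at 0 in the other 4 comparisons. The count past the adjusted p fell from 1 to 0 for PFF against monomer at 21% O2 in batch 1 alone and with only the groups compared in the fit, from 2 to 0 in batch 1 alone and to 1 with only the groups compared for 11% O2 in monomer mice, and from 1 to 0 in batch 1, 2 or 3 alone for 11% O2 in PFF mice. Each batch holds 13 to 15 of the 42 mice. With each mouse left out, that count ranged from 0 to 1 for PFF at 21% O2 and from 1 to 2 for 11% O2 in PFF mice, where the second gene was *Hif3a*. Over 14 alternatives the change of *Hif1an* with PFF at 21% O2 ran from -0.27 to -0.05, and over 15 that of *Egln1* with 11% O2 in PFF mice from 0.21 to 0.28. No fold change of the 10 genes that passed in either fit turned its sign. Of all 2780 values compared, 116 turned their sign, and these passed in neither fit.

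Over all genes, calls for PFF at 21% O2 fell from 549 to 9 in batch 1 alone. For 11% O2 in monomer mice they fell from 1073 to 657 with batch as a covariate and to 297 in batch 1, and in PFF mice from 86 to 57 on uncorrected counts with no batch term and to 6, 7 and 2 in batches 1, 2 and 3. Calls for the interaction fell from 318 to 64.5% of that count with batch as a covariate in 42 mice, to 152 in 48 mice and to 11 in batch 1. Without the fold threshold they were 1127 for PFF at 21% O2 and 1961 for 11% O2 in monomer mice. For PFF at 11% O2, where edgeR called 0 and 581 genes had an unadjusted p under 0.05, DESeq2 called 1, as did edgeR without replicate 11 of the monomer mice at 11% O2. The causes were not tested.

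The methods describe mice matched between groups by weight, age, cage and date of delivery, and whether replicate numbers follow that matching is not given in the sources used here. Replicates 1 to 4 of all 4 groups are in batch 1. The median correlation of same-numbered mice in their deviations from group means ran from -0.20 to 0.17 over the 6 pairs of groups, and single correlations were above 0.1 in 7 of 9 such pairs between monomer mice at 21% O2 and PFF mice at 11% O2 but in 0 of 8 between monomer mice at 21% and 11% O2, so the numbers were not used as pairs. With the replicate number as a block, 0 of the 10 genes were called in any of the 5 comparisons, *Egln1* and *Hif1an* passed in the same 2 comparisons each, and over all genes 461 were called for PFF at 21% O2, 0 for PFF at 11% O2, 1124 and 72 for 11% O2 in monomer and PFF mice, and 292 for the interaction.

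Corrected group means of TPM were 0.986 to 1.14 times those before correction, which are relative to all genes and not to protein-coding genes alone. Of 45 correlations between the 10 genes, 4 changed sign on uncorrected counts and 4 as Spearman's rho, none of them beyond 0.4, and 12 of the 90 alternative values moved by more than the standard error of a correlation over 42 mice. The values before correction for markers were chosen after seeing the data. At 64 to 391 counts per mouse for *Hif3a* and 123 to 331 for *Egln3*, these 2 genes had the lowest depth, and the other 8 had at least 523 counts in every mouse.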
